A study of Mus musculus with 6 samples.

Results

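Coronins are actin-binding proteins built around a β-propeller of WD repeats, and the mouse genome holds 7 genes for them: Coro1a, Coro1b, Coro1c, Coro2a, Coro2b, Coro6 and Coro7. The family was taken by name, and the rule uses no measured value. The 7 of 55335 gene identifiers in the deposited count table that map to these symbols in GENCODE M21 were used. The members and the gene lists below were nevertheless chosen with earlier results of these data known. RNA sequencing compared wild-type mouse embryonic fibroblasts (MEFs, connective tissue cells grown in culture) that had crossed a transwell membrane with 3 μm pores within 15 h (Confine) with parental cells (Ctrl). The parental cells are a reference for unconfined culture, and cells that did not cross were not analysed here, so passage through the pores and a difference between cells that cross and cells that do not cannot be told apart. Differences of medium and surface cannot be separated from these either. The paper's transwell method, given for another pore size, put cells in medium without serum above the membrane and medium with serum below. Each group has 3 deposited samples, but Confine replicates 1 and 2 carried equal counts for every one of the 55335 genes, so they entered as 1 library, named Confine 1 here, which leaves 3 Ctrl and 2 Confine libraries. Nothing in the labels says whether the samples came from separate cultures, so p-values measure only the spread between these samples, which may be technical.

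Type I coronins (Coro1a, Coro1b, Coro1c and Coro6) bind filaments at the leading edge and act with the Arp2/3 complex, which starts new branches on actin filaments, and with cofilin, which severs old ones. Coro1b is known to bring the phosphatase Slingshot, which activates cofilin, to Arp2/3-rich networks. Type II coronins (Coro2a and Coro2b) act at stress fibres and focal adhesions, and Coro2a is also known from the NCoR corepressor complex. Coro7 carries a pair of β-propellers in tandem and works at the Golgi. Coro1a is best known from leukocytes, Coro2b from neurons and Coro6 from muscle.

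The coding sequences set these types apart. The longest annotated coding sequence had 461 codons without its stop codon in Coro1a, 484 in Coro1b, 474 in Coro1c, 471 in Coro6, 543 in Coro2a, 480 in Coro2b and 922 in Coro7. Among Coro1a, Coro1b, Coro1c and Coro6 the aligned coding sequences were 69.7 to 73.9% identical over 6 pairs, Coro2a and Coro2b were 70.1% identical, and the 8 pairs between both types were 59.4 to 62.6% identical. Coro7 was left out of these alignments because of its length. No pair of coronin transcripts shared a stretch of 100 bases at 95% identity or more.

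The 3 genes whose levels differed between the groups were Coro2a, Coro6 and Coro1a, and the DNA before their annotated starts is shown to place them in the genome. RefSeq promoters (GRCm38.p6) were at hand for 6 of the 7 coronins, all but Coro1b, as 9 windows of 250 bases that end just before a start. Coro2a has 2 such windows on the minus strand, an upstream one at chr4:46601930-46602179 with 73.6% GC and 33 CpG dinucleotides, and an internal one at chr4:46566441-46566690 with 49.2% GC and 3 CpG dinucleotides. The Coro6 window shown lies at chr11:77462330-77462579 on the plus strand (67.2% GC) and the Coro1a window at chr7:126704817-126705066 on the minus strand (58.8% GC). Coro6 and Coro1a each have another window, not shown, at chr11:77463661-77463910 (50.4% GC) and at chr7:126704221-126704470 (60% GC). The GENCODE span of Coro1a begins at 126707787 on its strand, so both Coro1a windows lie within the gene. The other Coro6 window also lies within its gene, which begins at 77462411. Capitals mark ACGTG or GCGTG on either strand, the core of the hypoxia response element. Each sequence is written 5′ to 3′ in the direction of transcription.
Coro2a, upstream start: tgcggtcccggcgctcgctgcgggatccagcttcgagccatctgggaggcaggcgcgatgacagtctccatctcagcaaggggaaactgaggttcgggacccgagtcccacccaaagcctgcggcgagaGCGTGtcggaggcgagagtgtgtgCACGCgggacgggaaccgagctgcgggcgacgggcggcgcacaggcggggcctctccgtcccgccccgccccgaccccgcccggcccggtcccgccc
Coro2a, internal start: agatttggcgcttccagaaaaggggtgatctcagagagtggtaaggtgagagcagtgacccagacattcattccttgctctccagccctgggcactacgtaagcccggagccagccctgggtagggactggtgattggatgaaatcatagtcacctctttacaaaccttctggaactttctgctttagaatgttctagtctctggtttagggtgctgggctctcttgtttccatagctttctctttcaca
Coro6: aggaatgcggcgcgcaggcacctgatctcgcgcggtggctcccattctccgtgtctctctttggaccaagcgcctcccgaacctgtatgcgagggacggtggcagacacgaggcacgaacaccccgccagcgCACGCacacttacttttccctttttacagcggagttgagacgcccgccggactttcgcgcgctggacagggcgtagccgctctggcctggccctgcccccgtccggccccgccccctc
Coro1a: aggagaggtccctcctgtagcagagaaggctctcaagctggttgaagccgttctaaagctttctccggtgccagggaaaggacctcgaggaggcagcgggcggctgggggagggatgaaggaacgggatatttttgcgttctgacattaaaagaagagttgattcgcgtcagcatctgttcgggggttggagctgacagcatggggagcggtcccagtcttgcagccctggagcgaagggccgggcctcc
The motif occurred 2 times before the upstream start of Coro2a, 1 time in the Coro6 window shown and not in the other windows shown. It also occurred 1 time in the other Coro6 window but not in the other Coro1a window, and 5 of the 9 coronin windows held it. Of all 32851 promoters of the same length, 38.6% held it, and a match is a description of the letters only. That share was not matched for GC: the median of all promoters was 52.4%, and the coronin windows ran from 49.2 to 76.8%.

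The libraries held between 22287210 and 32537550 counts. TMM factors scaled the libraries, and levels are given as normalized CPM, a gene's counts at a common library size, and 3 counts correspond to 0.101 to 0.128 normalized CPM. The 15881 genes that passed edgeR's filter on low counts, all 7 coronins among them, were tested with edgeR's quasi-likelihood test, and p-values were adjusted over all of them by the Benjamini-Hochberg method. Calls needed an adjusted p under 0.05 together with an absolute log2 fold change above 1.5, and a gene is said to rise or fall where the adjusted p alone was under 0.05. The median log2 fold change of all tested genes was -0.0021.

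Of the 7 coronins, 1 was called, Coro2a, against 8.00% of all tested genes called (4.89% higher and 3.11% lower in Confine). By the adjusted p alone 3 coronins changed, against 23.0% of all tested genes: Coro2a and Coro6 rose (12.8% of all genes rose) and Coro1a fell (10.2% fell). These same 3 were the coronins whose Ctrl and Confine libraries did not overlap, a property of 49.5% of all tested genes. The 3 that changed were scarce, and the 3 abundant coronins, Coro1b, Coro1c and Coro7, together with the scarce Coro2b, did not pass the test. In bulk RNA, fewer cells that express a gene and less of its RNA per cell cannot be told apart.

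**Figure D1:**
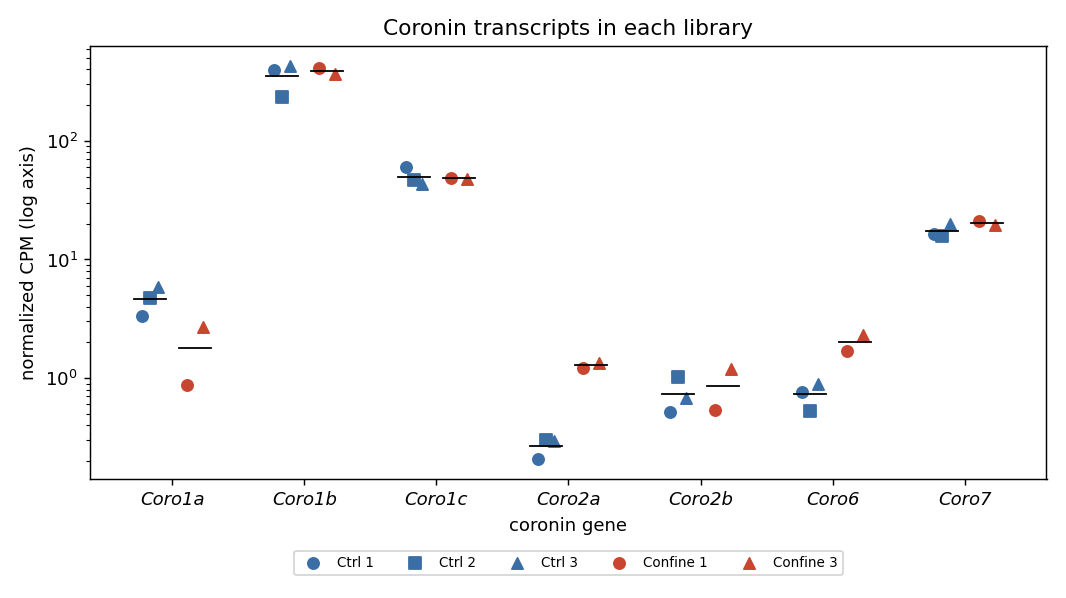
Normalized CPM (log axis) of each coronin gene in the 3 Ctrl libraries (blue) and the 2 Confine libraries (red), with marker shapes for the replicate number and black lines for group means. The groups do not overlap for Coro1a, Coro2a and Coro6, and overlap for the other 4.

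Among type II coronins, Coro2a (minus strand of chromosome 4, GRCm38 46536937 to 46602202) was counted 6, 8 and 7 times in Ctrl 1, 2 and 3 and 36 and 34 times in Confine 1 and 3. The normalized CPM were 0.207, 0.302 and 0.298 in Ctrl against 1.22 and 1.35 in Confine. Both Confine libraries lay above every Ctrl library, and the 95% counting intervals (exact binomial, counting error only) did not overlap either. The highest Ctrl bound was 0.613 and the lowest Confine bound 0.852 CPM. The mean rose from 0.269 ± 0.0536 (SD, n = 3) to 1.28 ± 0.0945 CPM (SD, n = 2), a log2 fold change of 2.24 ± 0.52 (SE) or 4.73-fold (edgeR quasi-likelihood test, adjusted p = 0.00374). The study picked out actin-associated genes among those that changed in these same samples, so the call of Coro2a is not independent evidence. Without Confine 3 its log2 fold change was 2.16 with an edgeR adjusted p of 0.0517, and a filter of at least 10 counts in every library removed the gene because of its low Ctrl counts.

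Coro2b, the neuronal type II coronin (minus strand of chromosome 9, 62419492 to 62537044), was counted 15, 27 and 16 times in Ctrl and 16 and 30 times in Confine. Its normalized CPM were 0.518, 1.02 and 0.680 in Ctrl against 0.541 and 1.19 in Confine. The groups overlapped, and the libraries of one group differed from each other by more than the group means did. The log2 fold change was 0.22 ± 0.53 (SE) with a 95% interval of -0.81 to 1.25 (edgeR adjusted p = 0.817). At this depth, changes of either sign within these bounds were not excluded. Without Confine 3 the estimate was -0.45 and without Confine 1 it was 0.69.

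Among type I coronins, Coro6, described mostly in muscle (plus strand of chromosome 11, 77462411 to 77470484), was counted 22, 14 and 21 times in Ctrl and 50 and 58 times in Confine. Its normalized CPM were 0.760, 0.529 and 0.893 in Ctrl against 1.69 and 2.30 in Confine. Both Confine libraries were higher than every Ctrl library, although the counting interval of Ctrl 3, up to 1.37 CPM, met that of Confine 1, from 1.25 CPM. The rise was 2.73-fold, or 1.45 ± 0.42 (SE) on the log2 scale (edgeR adjusted p = 0.0171), just under the fold needed for a call. Without Confine 3 the log2 fold change was 1.21 and without Confine 1 it was 1.66, fits in which Confine had 1 library. Coro6 was called without Ctrl 3 (1.60).

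Coro1a, the coronin of leukocytes (minus strand of chromosome 7, 126699773 to 126707787), was counted 97, 125 and 138 times in Ctrl and 26 and 68 times in Confine. Its normalized CPM were 3.35, 4.72 and 5.87 in Ctrl against 0.878 and 2.70 in Confine. Both Confine libraries lay below every Ctrl library but also far from each other, and their counting intervals, 0.574 to 1.29 and 2.097 to 3.42 CPM, did not overlap. Coro1a fell by 1.39 ± 0.40 (SE) on the log2 scale, a 2.62-fold lower level (edgeR adjusted p = 0.0172). The size rested on Confine 1: the log2 fold change was -0.78 without it and -2.40 without Confine 3, fits in which Confine had 1 library. Coro1a was called without Ctrl 1, where the log2 fold change was -1.58. Scaled by library size alone it was -1.59 and passed the rule for a call.

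Coro1b, the broadly expressed partner of Slingshot and Arp2/3 (plus strand of chromosome 19, 4148619 to 4154035), was counted 11470, 6193 and 10133 times in Ctrl and 12119 and 9182 times in Confine. Its normalized CPM were 396, 234 and 431 in Ctrl against 409 and 365 in Confine. Ctrl 2 stood below the other 4 libraries, with a counting interval of 228 to 240 CPM, and the Confine values lay inside the range of Ctrl. The log2 fold change was 0.13 ± 0.22 (SE) with a 95% interval of -0.31 to 0.57 (edgeR adjusted p = 0.733). Its sign turned without Ctrl 2, to -0.10, and with library size alone, to -0.07. The gene shares 432 exon bases, 13.5% of its exons, with Ptprcap on the same strand, and Ptprcap itself had a mean of 0.2 counts.

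Coro1c, a coronin of lamellipodia (minus strand of chromosome 5, 113842436 to 113908758), was counted 1746, 1234 and 1010 times in Ctrl and 1450 and 1194 times in Confine. The normalized CPM were 60.3, 46.6 and 43.0 in Ctrl against 49.0 and 47.4 in Confine, so both Confine values lay between Ctrl 1 and Ctrl 2. The log2 fold change was -0.05 ± 0.19 (SE), with a 95% interval of -0.43 to 0.33 (edgeR adjusted p = 0.881). Without Ctrl 1, the highest library, it was 0.10. Over 455 bases its transcripts are 95.6% identical to the genes 2010001K21Rik and Gm5790, so reads from that stretch are uncertain.

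Coro7, the Golgi coronin (minus strand of chromosome 16, 4626133 to 4679777), was counted 479, 421 and 466 times in Ctrl and 623 and 491 times in Confine. The normalized CPM were 16.5, 15.9 and 19.8 in Ctrl against 21.05 and 19.5 in Confine. Confine 3 lay below Ctrl 3, so the groups overlapped. The log2 fold change was 0.22 ± 0.19 (SE), with a 95% interval of -0.16 to 0.60 (edgeR adjusted p = 0.467).

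**Figure D2:**
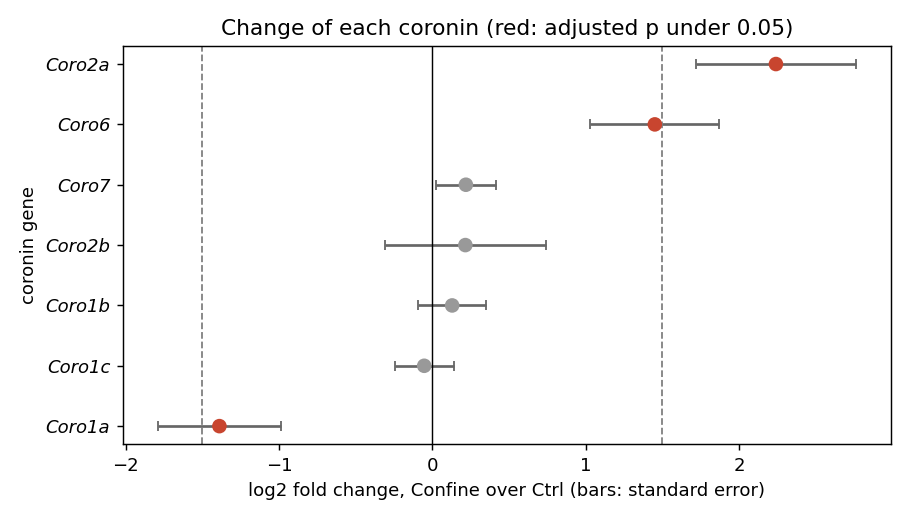
Log2 fold change of each coronin, Confine over Ctrl, with bars for the standard error, red points for an edgeR adjusted p under 0.05 and dashed lines at -1.5 and 1.5. Coro2a (2.24) lies beyond the line, Coro6 (1.45) and Coro1a (-1.39) lie just inside it, and the other 4 lie between -0.05 and 0.22.

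To compare coronins with each other, normalized CPM were divided by the length in kilobases of the transcript with the longest coding sequence, a length chosen after the data were seen. On this level scale the order in Ctrl was Coro1b (187 ± 55.7, SD, n = 3), Coro1c (14.3 ± 2.62), Coro7 (4.06 ± 0.488), Coro1a (2.66 ± 0.722), Coro6 (0.259 ± 0.0657), Coro2b (0.205 ± 0.0710) and Coro2a (0.0653 ± 0.0130). Only Coro6 and Coro2b overlapped among neighbours in that order. In Confine the first 3 were again Coro1b (205 ± 16.8, SD, n = 2), Coro1c (13.8 ± 0.320) and Coro7 (4.72 ± 0.256), each apart from the next. Below them came Coro1a (1.02 ± 0.737), Coro6 (0.712 ± 0.155), Coro2a (0.311 ± 0.0229) and Coro2b (0.240 ± 0.127). Coro2a was thus the scarcest coronin in every Ctrl library, and in Confine its range overlapped that of Coro2b. Coro1a and Coro6, separate in Ctrl, overlapped in Confine.

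The summed normalized CPM of the 7 coronins was 478, 303 and 501 in Ctrl and 484 and 439 in Confine. Both Confine values lay inside the Ctrl range, and without Coro1b the sums of all 5 libraries lay between 69.1 and 81.7 CPM. The means of the whole family were 428 ± 108 (SD, n = 3) and 461 ± 31.7 (SD, n = 2), a log2 difference of 0.14 that is smaller than the spread between the Ctrl libraries.

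Each coronin's share of this total does not depend on the scaling between libraries. Coro1b held 82.9, 77.2 and 85.9% of the family CPM in Ctrl and 84.6 and 83.0% in Confine, and Coro1c held 12.6, 15.4 and 8.57% in Ctrl and 10.1 and 10.8% in Confine. Coro7 held 3.46, 5.25 and 3.95% in Ctrl and 4.35 and 4.44% in Confine. For each of these 3 the groups overlapped.

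The Coro2a share was 0.0434, 0.0997 and 0.0594% in Ctrl and 0.251 and 0.307% in Confine, and the Coro6 share was 0.159, 0.175 and 0.178% in Ctrl and 0.349 and 0.525% in Confine. Both were higher in every Confine library than in any Ctrl library (two-sided exact permutation test over libraries, p = 0.1 each, the smallest that 3 against 2 libraries allow). Adjusted over the 7 coronins, the exact permutation p was 0.35 for each. The Coro1a share was 0.701, 1.56 and 1.17% in Ctrl and 0.182 and 0.615% in Confine, lower in both Confine libraries (exact permutation p = 0.2, adjusted over the 7 coronins 0.467). The Coro2b share, 0.108, 0.337 and 0.136% in Ctrl and 0.112 and 0.271% in Confine, overlapped. Per kilobase of transcript, Coro1b held 89.2 ± 2.93% (SD, n = 3) of the family in Ctrl and 90.8 ± 0.876% (SD, n = 2) in Confine.

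**Figure D3:**
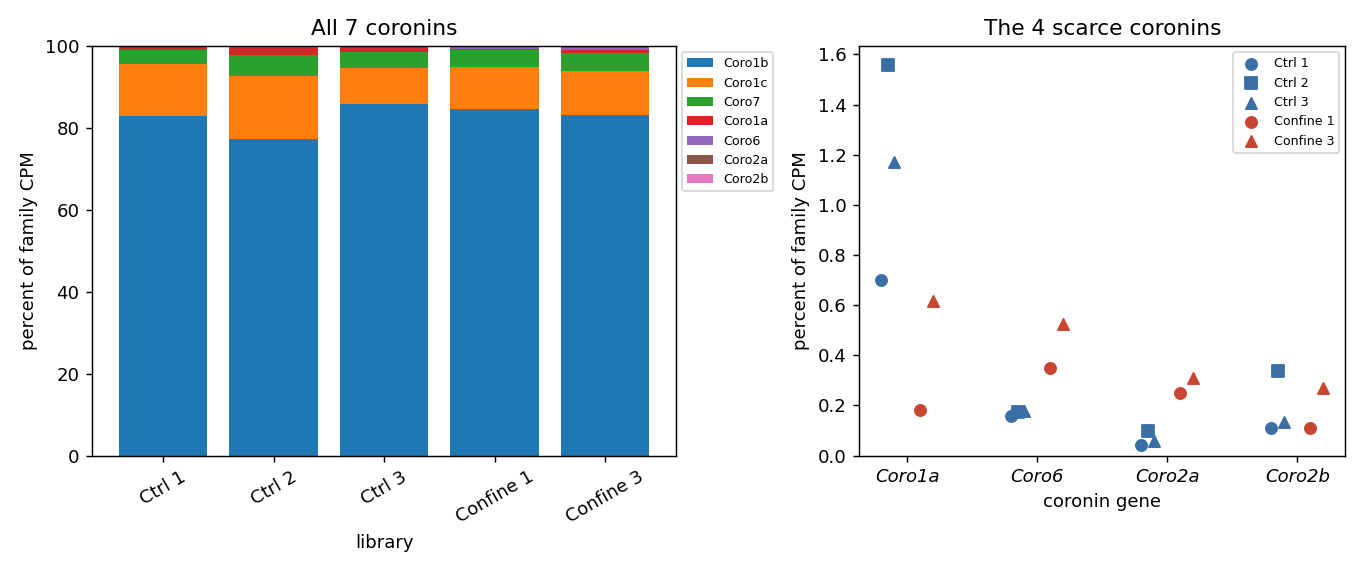
Left, stacked bars of each coronin's share of the family CPM in the 5 libraries. Right, the 4 coronins with the smallest shares on their own axis, with Ctrl in blue and Confine in red. Coro1b fills 77.2 to 85.9% of every bar, and only for Coro1a, Coro6 and Coro2a do the blue and red points stay apart.

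The genes of the machinery that coronins act on were read from 6 lists of 56 genes, of which 52 were tested. Of these 2 were called and 9 changed by the adjusted p, 4 rising and 5 falling, against the 8.00% and 23.0% of all tested genes given above, and their median log2 fold change was -0.01. Of the 9 that changed, Arpc2, Pdxp and Wasf1 kept an edgeR adjusted p under 0.05 without each library in turn, and the other 6 lost it without at least 1 library.

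All 10 genes of the Arp2/3 complex, the branch nucleator that type I coronins bind, were tested, and their median log2 fold change was -0.04. Arpc2, a core subunit, was at 290, 215 and 260 normalized CPM in Ctrl and 429 and 490 in Confine, with no overlap, and rose by 0.85 ± 0.18 (SE) on the log2 scale (edgeR adjusted p = 0.00214). Arpc3 was at 66.3, 74.2 and 74.3 CPM in Ctrl and 105 and 103 in Confine, a rise of 0.54 on the log2 scale (edgeR adjusted p = 0.0329) that did not pass with library size alone (0.33, adjusted p = 0.186). Actr3b, the scarce relative of the Arp3 subunit, was counted 19, 25 and 11 times in Ctrl and 5 and 4 times in Confine and was called, with a log2 fold change of -2.05 ± 0.67 (SE, edgeR adjusted p = 0.0350). Its call was lost without any one of Ctrl 1, Ctrl 2, Confine 1 or Confine 3 (edgeR adjusted p from 0.0564 to 0.185). In the sum over the complex, Ctrl libraries lay between 2502 and 2975 CPM and Confine libraries between 3147 and 3290 CPM. Scaled by library size alone the groups overlapped, with 2708 to 3138 CPM in Ctrl and 2904 to 2993 CPM in Confine.

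Of the 14 genes of the cofilin cycle 13 were tested, with a median log2 fold change of -0.01. Pdxp, the phosphatase chronophin that removes the inhibiting phosphate from cofilin, was counted 102, 135 and 51 times in Ctrl and 480 and 391 times in Confine. The groups were far apart, and Pdxp rose by 2.13 ± 0.28 (SE) on the log2 scale (edgeR adjusted p = 1.5e-05). Tesk2, a kinase that phosphorylates cofilin, fell by 0.80 on the log2 scale (edgeR adjusted p = 0.0351), from 8.81 to 10.2 CPM in Ctrl to 3.85 and 6.87 in Confine, and without Confine 1 its log2 fold change was -0.44.

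Of the 10 genes for factors that start, hold or undo branches 7 were tested, and Wasf3 had no count in any library. Wasf1, a WAVE protein that activates Arp2/3, was at 7.60, 11.8 and 8.29 CPM in Ctrl and 3.34 and 3.69 in Confine, and fell by 1.39 ± 0.27 (SE) on the log2 scale (edgeR adjusted p = 0.000815). Arpin, an inhibitor of Arp2/3, had a log2 fold change of -0.46 with overlapping groups (edgeR adjusted p = 0.115). Arpin passed the test without Ctrl 2 (-0.63, edgeR adjusted p = 0.00826) and with library size alone (-0.67, adjusted p = 0.0190), a scaling under which Wasf1 met the rule for a call.

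Among the 9 genes for actin, its monomer binders and capping protein, Tmsb10, a thymosin that sequesters monomers, rose by 0.63 on the log2 scale (edgeR adjusted p = 0.0169). With library size alone its log2 fold change was 0.42, which did not pass (adjusted p = 0.0999). Pfn1, which loads monomers onto growing filaments, was at 160, 81.1 and 63.6 CPM in Ctrl and 47.3 and 50.7 in Confine. It fell by 1.05 on the log2 scale (edgeR adjusted p = 0.0120), and the size rested on Ctrl 1, without which it was -0.57 (adjusted p = 0.0923).

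In the NCoR complex, where Coro2a is known as a component, all 6 genes were tested and their median log2 fold change was -0.04. Tbl1xr1, an exchange factor of the complex, fell by 0.62 on the log2 scale (edgeR adjusted p = 0.0280), and Hdac3, its deacetylase, had a log2 fold change of -0.27 (edgeR adjusted p = 0.369). None of the 7 genes listed for the Golgi setting of Coro7 changed by edgeR's quasi-likelihood test, against 23.0% of all tested genes. Those with the smallest p were Ap1s1, a subunit of the AP-1 adaptor (log2 fold change -0.35, edgeR adjusted p = 0.199), and Eps15, an endocytic adaptor (0.26, edgeR adjusted p = 0.349). With library size alone Ap1s1 had an adjusted p of 0.0319.

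**Figure D4:**
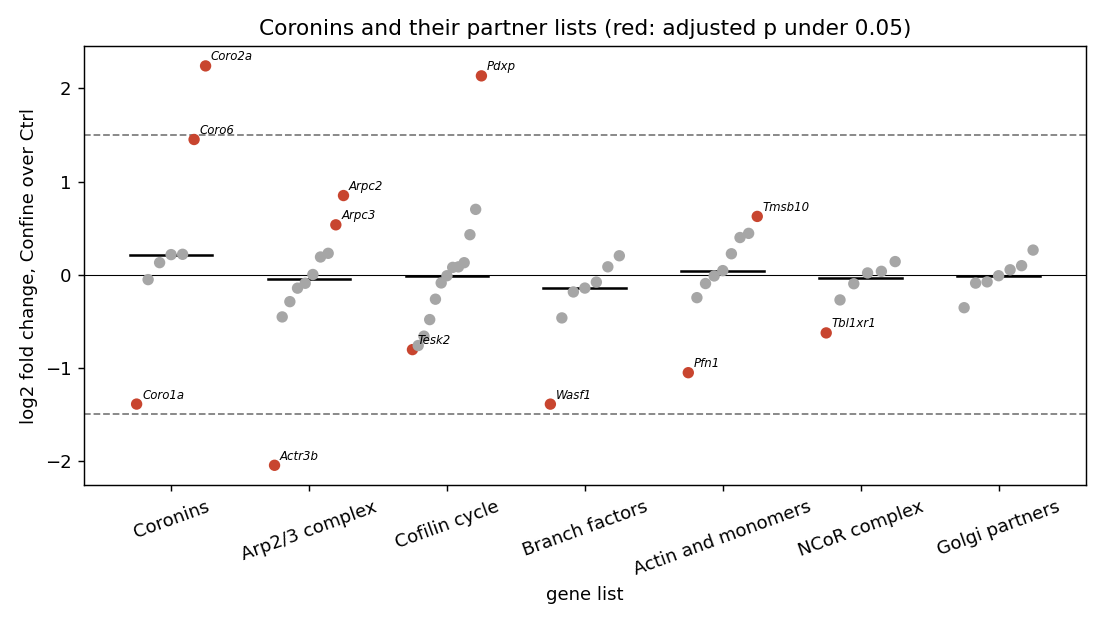
Log2 fold change, Confine over Ctrl, of the tested genes of the coronin family and of 6 partner lists, with red points for an edgeR adjusted p under 0.05, black bars for the list medians and dashed lines at -1.5 and 1.5. Coro2a and Pdxp lie above the upper line and Actr3b below the lower one.

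Because several coronins are known from other cell types, markers of those cells were read beside them. The cells carried fibroblast transcripts: 7 of 10 fibroblast markers were tested, and the summed level of all 10 was 8728 to 9586 CPM in Ctrl and 15717 to 16495 CPM in Confine. Of the 7 tested 5 rose, where 12.8% of all tested genes rose and 10.2% fell, while Thy1 and Lum had at most 2 counts and Dcn had 27 counts in Confine 1 and at most 3 elsewhere.

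Beside the fall of Coro1a, the summed level of 14 leukocyte markers was higher in Confine (38.8 to 43.8 CPM) than in Ctrl (16.7 to 19.6 CPM). Most of the Confine sums came from Cd68 (16.6 and 23.3 CPM) and Cd14 (17.3 and 15.4 CPM), and 8 of the 14 had at most 10 counts in every library. Of the 6 tested, 4 rose, Cd68 most (log2 fold change 2.67), and 1, Lyz2, fell (-2.64), beside 12.8% and 10.2% of all tested genes. Adgre1, Cd52, Tyrobp and Cd3e had no count in any library, and the pan-leukocyte marker Ptprc had 2 counts in Ctrl 1 and none elsewhere.

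Beside the rise of Coro6, the summed level of 10 skeletal muscle markers was 5.18 to 6.81 CPM in Ctrl and 14.5 to 16.8 CPM in Confine, and 2 of the 3 tested rose, Des (log2 fold change 1.43) and Acta1 (1.19), beside 12.8% of all tested genes. Myod1, the master regulator of muscle, and Actn2 had no count. Beside Coro2b, 10 neuronal markers summed to 30.8 to 42.8 CPM in Ctrl and 24.4 to 24.6 CPM in Confine, with Rbfox3 and Elavl4 at 0. Most of these sums came from Tubb3 (14.8 to 20.3 CPM in Ctrl, 11.6 and 11.4 in Confine) and Stmn2 (11.6 to 18.3 and 10.9 and 11.5). Neither passed the test (edgeR adjusted p = 0.0623 and 0.172). Among the 4 neuronal markers tested, 1, Map2, fell (log2 fold change -2.26), beside 10.2% of all tested genes.

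Epithelial and endothelial markers were read as well, though no coronin was tied to these cells above. The 8 epithelial markers summed to 0.340 to 0.416 CPM in Ctrl and 3.92 to 8.77 CPM in Confine. The Confine sums came nearly all from Krt19, the 1 tested, which rose (log2 fold change 4.84). Epcam, Krt18, Cldn4 and Ocln had no count. For the 7 endothelial markers the sums were 0.595 to 1.36 CPM in Ctrl and 2.43 to 2.70 CPM in Confine, with Vwf, the 1 tested, rising (log2 fold change 2.64) and Cldn5 and Emcn at 0; of all tested genes 12.8% rose. The part of these markers in the coronin changes was not tested.

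The genes whose profile over the 5 libraries was most like a coronin's were found by the root mean square distance between log2 CPM profiles, each centred on its mean, among 15880 other tested genes. For Coro2a they were Il12rb1, Gm42533, Slc7a2, Cisd3 and Inha, at distances of 0.0914 to 0.108 on the log2 scale, and their own log2 fold changes ran from 1.91 to 2.23. For Coro1c they were Exoc8, Mfsd12, Ttc27, Gm6419 and Zfp472, at distances of 0.0421 to 0.0522, with log2 fold changes from -0.14 to -0.05. The libraries are shared by all these genes, so the distances only describe them.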

How the data were processed

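MEF RNA was polyA-selected and made into dUTP libraries. The authors deposited raw read counts per gene, which the submitters' processing notes tie to Trim Galore 0.6.10, HISAT2 2.1.0, SAMtools 1.5, featureCounts and mm10; the annotation and strand setting of the counting are not given in the sources used here, and could move reads between overlapping genes. On the opposite strand, Coro1a shares 26 exon bases with Bola2 (mean 1754 counts) and Coro7 shares 153 with Dnaja3 (mean 3308 counts). Coro1b shares 45 with Rps6kb2 (mean 993 counts). Coro2a shares 329 with Gm16731 and Coro1c 372 with Gm17122, which had means of 0.2 and 0 counts. Of 55335 identifiers, 54587 matched GENCODE M21 with their version and 55154 without. Columns not used numbered 0.

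Libraries were grouped by the labels' titles, with the identical Confine columns counted once. Totals ranged from 22287210 to 32537550 counts. Genes kept by filterByExpr were TMM-normalized and tested by edgeR (4.0.16, R 4.3.3) with no block, on 3 residual degrees of freedom plus 14.8 prior ones (median). The SE is the absolute log2 fold change over the square root of F. Shares had exact two-sided permutation tests; the family total is given without one. Counting intervals are exact binomial and, like the floor of 3 counts, cover counting error only. Coding sequences were aligned with Biopython 1.88 and transcripts searched with blastn 2.17.0. The fit was tested on simulated data. Alternatives were other normalizations, filters and cutoffs, DESeq2 1.42.0, limma-voom (limma 3.58.1), the replicate block and leaving out libraries. Leaving out Confine 1 or Confine 3 left 1 Confine library, so p-values and calls of those fits rest on no spread within Confine.

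Named were all coronins, the called partner genes and the 2 with the smallest adjusted p in each partner list, the 5 genes nearest to Coro2a and to Coro1c, and markers at 0; other markers were named after their values were seen. Beside the 14 leukocyte markers, 1 more was planned and is not reported here. The members and lists were chosen with earlier results of these data known.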

Additional observations from a re-analysis of the deposited data

How the results depend on the processing

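Coro1a and Coro6 kept their direction in all 15 refits and Coro2a in the 14 that tested it, and their adjusted p stayed under 0.05 in 14, 13 and 13 of these. The number of coronins called was 2 (Coro1a and Coro2a) with library size alone, with limma-voom, with the identical columns as 2 samples, and under a replicate block in which the repeated library is number 2. It was 0 with at least 10 counts in every library, a filter that removes Coro2a, while edgeR gave Coro1a and Coro6 adjusted p of 0.0194 and 0.00806 there. It was 3 with the adjusted p alone or an absolute log2 fold above 1, and 1 to 2 without each library in turn: Coro1a and Coro2a without Ctrl 1, Coro2a without Ctrl 2, Coro2a and Coro6 without Ctrl 3 or without Confine 1, and Coro1a without Confine 3.

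All tested genes called numbered 812 with at least 10 counts in every library, 3654 with the adjusted p alone, 2138 with an absolute log2 fold above 1 and 1078 to 1290 without each library. With library size alone 622 were called higher and 678 lower in Confine, against 777 and 494.

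For coronins that did not pass the test, the sign of the log2 fold change turned for Coro1b (-0.075 with library size alone, -0.10 with the replicate block as number 1, -0.10 to 0.28 without each library), Coro1c (0.11 with the block as number 2, -0.17 to 0.10 without each library) and Coro2b (-0.049 with the block as number 2, -0.45 to 0.69 without each library). The cause was not tested. With the block as number 2, Coro6 had a log2 fold change of 1.51 and an edgeR adjusted p of 0.0529. The repeated library carries the numbers 1 and 2, so the block was fitted both ways, calling 1315 and 1141 genes. Deviations of same-numbered libraries had a correlation across genes of 0.052 and -0.053, over 2 pairs only, so the numbers were not taken to pair samples.

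The log2 difference of the family total was -0.065 with library size alone and -0.087 to 0.28 without each library. Differences in shares, Confine minus Ctrl in percentage points, turned for Coro1b (-0.59 to 3.78), Coro2b (-0.082 to 0.078) and Coro7 (-0.20 to 0.69) without each library, and for Coro2b (0.14) in the family without Coro1b; the other 57 refits of shares kept their direction.

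By the adjusted p alone, 23.0% of all tested genes changed. Among the partner lists it was 3 of 10 tested (Arp2/3), 2 of 13 (cofilin cycle) and 1 of 7 (branch factors). It was 1 of 6 (NCoR), 2 of 9 (actin and monomers) and 0 of 7 (Golgi). Among the marker lists it was 5 of 6 (leukocyte), 1 of 4 (neuron), 2 of 3 (muscle) and 5 of 7 (fibroblast). It was 1 of 1 each for epithelial and endothelial markers. With library size alone 1 branch factor met the rule for a call, against 1300 of 15881 tested genes. Without each library, a setting chosen for the partner genes after seeing the data, 1 to 2 partner genes were called. At this depth Coro2a, Coro2b and Coro6, with under 60 counts a library, limit the precision most.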
